A study of Mus musculus with 12 samples.

Results

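The collagen genes are the genes of the alpha chains from which collagen proteins are built. They were taken by name, as every gene of the deposited tables named Col, a number, a and a second number, which gave 44 of the 55487 genes listed. By the structure of their proteins, 11 code for fibrillar collagens, 9 for fibril-associated collagens, 9 for collagens of basement membranes, 9 for network and filament collagens, 4 for transmembrane collagens and 2 for others. Levels are in TPM, the transcripts of a gene among all transcripts of a library scaled to a fixed total, a unit corrected for transcript length in which genes can be compared. In all, 37 genes had a mean of at least 0.3 TPM in at least 1 group and are described. The other 7 (Col2a1, Col9a1, Col9a2, Col10a1, Col19a1, Col22a1 and Col25a1) stayed under 0.3 TPM in every group and are only counted. The highest group mean was 0.551 TPM for Col6a4, the lowest of the genes described, and 0.252 TPM for Col25a1, the highest of those left out.

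Collagen chains wind around each other into a helix, and many must be hydroxylated, secreted, trimmed and cross-linked before they bear load. Types I and III form the fibrils of the dermis, type V starts them, and types XII, XIV and XVI decorate them. Type IV forms the sheets under the epidermis and around vessels, type VII anchors the epidermal sheet to the dermis, and type XVII spans the membrane of basal keratinocytes. In a healing wound, fibroblasts lay down type III and type I collagen in granulation tissue while vessels and epidermis grow back with their own basement membranes.

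RNA of full-thickness punch wounds (6 mm across, 2 per mouse) on the back of male C57BL/6JNarl mice aged 6 weeks was sequenced at day 3 and day 6, and each of the 4 groups held 3 libraries. Sham wounds received 200 µL of 25% Pluronic F127 gel in saline each day, and CAP-treated wounds received the same gel with 10 µM capsaicin (CAP), the pungent compound of chili peppers. The gel and the sterile dressing over the wounds were common to all groups, so no group shows a wound without gel. The tissue taken held the wound and skin around it, and how much of each a library held is not given, nor is whether libraries share a mouse. Whether the days were prepared together is also not given, so the day and its preparation cannot be told apart. Because whole tissue was sequenced, fewer cells of a type and less RNA per cell cannot be told apart in any result.

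Libraries of a group correlated at 0.956 to 0.975 across genes on the log2 scale, and libraries of different groups at 0.934 to 0.975. All 10 keratinocyte, 10 fibroblast and 10 endothelial marker genes reached 0.3 TPM in every library, while 4 of 8 cartilage markers stayed under it in all of them. The second CAP library of day 6 stood apart. Its keratinocyte markers summed to 91794 TPM against 24360.5 to 61574 TPM in the other 11 libraries. Krt1 and Krt10, keratins of the upper epidermis, made up 70519 TPM of that sum (others 7324 to 35924.5 TPM). The other 8 keratinocyte markers summed to 21274 TPM, within the range of the other libraries (13053 to 29658 TPM). Singly, Krt5 (8736 TPM) and Krt15 (469 TPM) lay above the other libraries, and Lamb3 (104 TPM) and Itga6 (182 TPM) below them, in that library. Its endothelial markers summed to 129 TPM against 163 to 551 TPM, and its neutrophil markers to 283 TPM against 1213 to 6141 TPM. Values without it are given beside many of the results that use it, but not beside all of them.

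Several collagen genes sit beside the gene of a partner chain. On the mouse genome GRCm38 with GENCODE M21 genes, Col4a1 (chr8:11198423-11312826, minus strand) and Col4a2 (chr8:11312805-11449287, plus strand) lie head to head and overlap by 22 bases. Col4a4 (chr1:82448423-82586849, minus strand) and Col4a3 (chr1:82586921-82722059, plus strand) lie head to head with 71 bases between their starts. Col4a6 (chrX:141165403-141474076, minus strand) and Col4a5 (chrX:141475385-141689234, plus strand) lie head to head with 1308 bases between them. Col3a1 (chr1:45311538-45349706, plus strand) and Col5a2 (chr1:45374321-45503282, minus strand) end toward each other 24614 bases apart. Sequences upstream of 7 genes, from RefSeq for GRCm38.p6, show the ground between such pairs and upstream of genes whose values are given in full. Each is read 5′ to 3′ on the strand of the gene, holds at most 150 bases of the last 250 before the RefSeq start, and leaves out bases of annotated exons. The stretches of Col3a1, Col8a1, Col4a4 and Col4a6 end at the last base before that start, and those of Col4a5, Col17a1 and Col1a2 end 35, 53 and 126 bases before it. The stretch of Col1a2 lies 556 bases inside the GENCODE gene (chr6:4504814-4541544, plus strand), which begins further upstream than the RefSeq start. Capitals mark the CCAAT box, the GC box (GGGCGG) and the TATA box (TATAAA) on either strand, so that a motif on the other strand appears as its reverse complement.
Col4a4, all 71 bases up to the start of Col4a3 (chr1:82586850-82586920, minus strand): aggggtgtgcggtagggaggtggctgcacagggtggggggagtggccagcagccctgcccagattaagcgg
Col4a6 (chrX:141474077-141474226, minus strand): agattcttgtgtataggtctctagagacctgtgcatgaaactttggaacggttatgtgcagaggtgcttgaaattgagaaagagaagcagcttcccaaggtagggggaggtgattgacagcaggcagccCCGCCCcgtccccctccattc
Col4a5 (chrX:141475235-141475384, plus strand): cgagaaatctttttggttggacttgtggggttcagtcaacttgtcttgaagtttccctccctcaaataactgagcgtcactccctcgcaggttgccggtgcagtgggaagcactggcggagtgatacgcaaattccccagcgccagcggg
Col3a1 (chr1:45311388-45311537, plus strand): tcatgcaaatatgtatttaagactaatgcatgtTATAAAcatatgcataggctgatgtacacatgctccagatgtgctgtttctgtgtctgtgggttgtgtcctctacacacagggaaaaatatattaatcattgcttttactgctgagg
Col1a2 (chr6:4505370-4505492, plus strand): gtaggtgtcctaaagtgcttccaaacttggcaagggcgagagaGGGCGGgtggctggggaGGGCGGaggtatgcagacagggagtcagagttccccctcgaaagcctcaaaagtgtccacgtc
Col8a1 (chr16:57754738-57754887, minus strand): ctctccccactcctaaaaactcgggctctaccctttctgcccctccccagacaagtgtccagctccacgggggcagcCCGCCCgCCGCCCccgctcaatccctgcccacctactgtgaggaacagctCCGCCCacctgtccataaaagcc
Col17a1 (chr19:47692095-47692244, minus strand): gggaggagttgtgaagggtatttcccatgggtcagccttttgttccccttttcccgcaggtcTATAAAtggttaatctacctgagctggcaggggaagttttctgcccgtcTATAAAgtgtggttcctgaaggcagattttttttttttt

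The promoter table held 38 windows for 35 of the 44 collagen genes. In their 250 upstream bases, 22 windows (57.9%) held GGGCGG, the GC box, against 32.7% of the 32851 windows of all genes. CCAAT stood in 13 (34.2%, all genes 33.8%) and TATAAA in 5 (13.2%, all genes 12.4%). These matches describe letters and not sites in use. The stretch between Col4a4 and Col4a3 holds none of the 3 motifs, and neither does the stretch of Col4a5 shown.

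The 44 genes together held between 1.21% and 2.91% of a library's TPM. The most abundant 3, Col3a1, Col1a1 and Col1a2, held 76.3% to 83.2% of the collagen TPM. The sum was 25915, 16958 and 21794 TPM in the sham libraries of day 3 and 14097, 12068 and 17532 TPM in the CAP libraries. At day 6 it was 29077, 22479 and 25633 TPM in the sham libraries and 18491, 17008 and 23982 TPM in the CAP libraries. CAP libraries lay lower on average at both days, with 1 overlapping library in each comparison. Averaged over the days, the sum was 27.9% lower with CAP, 2-sided p = 0.02 in an exact permutation test of libraries within days, and adjusted p = 0.21 over 42 sums and comparisons. It was 28.1% higher at day 6 than at day 3 averaged over treatments, with exact permutation p = 0.04 and the same adjusted p, and p was above 0.05 when any of 8 libraries was left out (0.02 to 0.09 over all 12). At a single day, 3 libraries against 3 cannot give an exact p below 0.1, and p was 0.2 for CAP against sham at both days. Of the 42 tests of classes and comparisons, the lowest adjusted p was 0.105, for the fibril-associated sum, higher at day 6 by 0.60 on the log2 scale, and for the network sum, lower with CAP by a difference of -0.53. With the second CAP library of day 6 left out, the collagen sum differed by -0.42 with CAP averaged over the days (exact permutation p = 0.035) and by 0.41 between the days (p = 0.045), and the fibril-associated and network sums differed by 0.66 and -0.48.

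**Figure D1:**
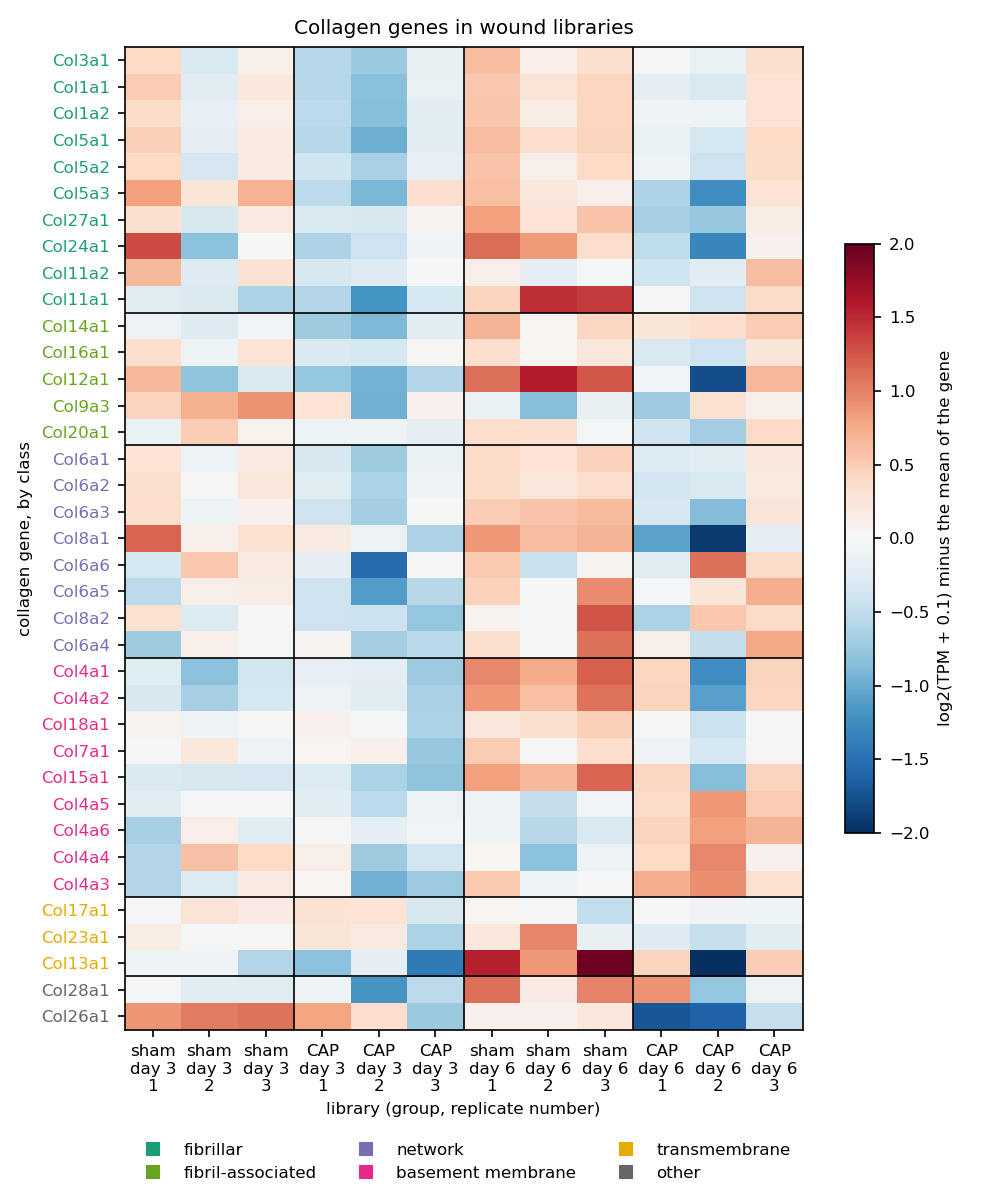
Level of the 37 described collagen genes in 12 libraries, as log2(TPM + 0.1) minus the mean of each gene over the libraries (red higher, blue lower). Rows are genes colored by class and columns are libraries in groups of 3. The sham libraries of day 6 are mostly red, the CAP libraries of day 3 mostly blue, and the second CAP library of day 6 has the lowest values of Col4a1, Col4a2, Col8a1, Col12a1 and Col13a1.

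Between day 3 and day 6 in sham wounds, 4 collagen genes rose and none fell, at an adjusted p under 0.05 in limma with Benjamini-Hochberg adjustment over all genes tested. The 4 were Col4a1, Col4a2 and Col15a1, of vessel and other basement membranes, and Col13a1, a transmembrane collagen. They were 11.1% of the 36 collagen genes tested, beside 1.14% of all 18368 genes called higher and 1.14% called lower. The median difference over the 36 genes was 0.29 on the log2 scale, against 0.00 for all genes, and 27 differences were above 0. Of the 37 genes described, Col6a4 did not pass the filter here. At an unadjusted p under 0.05, 11 collagen genes were higher (all genes 8.05%) and 2 lower (all genes 7.91%). The 4 calls depended on single libraries: without sham library 3 of day 3, 0 collagen genes were called (1 gene of the whole table), and without sham library 3 of day 6 there were 2. In the joint fit of all 12 libraries limma called none of them (0 genes of the whole table, with 8 collagen genes higher at an unadjusted p under 0.05), and with no filter on low values 2 collagen genes were called. The 2 genes lower at the unadjusted threshold, Col9a3 and Col26a1, became 1 without sham library 3 of day 3 or sham library 1 or 2 of day 6.

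In CAP-treated wounds, no collagen gene of 34 tested was called between the days in limma, where 0% of all 18202 genes were called higher and 0.00549% lower. Without adjustment, 7 collagen genes were higher at p under 0.05 (20.6%, all genes 5.66%) and 0 lower (all genes 5.91%). They were Col14a1, Col4a5, Col4a6, Col4a3, Col6a5, Col1a2 and Col4a4. Col6a4, Col8a2 and Col26a1 did not pass the filter. The median difference was 0.34 against -0.05 for all genes, 0.56 without the second CAP library of day 6 and 0.01 without the third. The count of 7 was 10 without the second library of day 6, 4 without the first and 3 without CAP library 2 of day 3. Without CAP library 3 of either day, 2 genes were lower. A test of the difference between the day effects of CAP and sham wounds, in a joint fit of all 12 libraries, called 0 of 37 collagen genes and 0 of 20267 genes. At the unadjusted threshold, it held 3 collagen genes with the larger day effect in CAP wounds (all genes 5.43%), Col4a5, Col4a6 and Col4a4, and 1 with the larger effect in sham wounds (all genes 5.88%), Col4a1. These counts rested on single libraries: the 3 became 1 without sham library 2 or CAP library 2 of either day and 5 without CAP library 1 of day 3, and the 1 ran from 0, without any of 5 libraries, to 6 without CAP library 3 of day 6.

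Averaged over both treatments, day 6 against day 3 called 1 collagen gene of 37 higher, Col14a1, beside 0.543% of all 20267 genes, and 0 lower, beside 0.755%. Unadjusted, 15 were higher at p under 0.05 (40.5%, all genes 7.18%) and 1, Col26a1, was lower (all genes 9.81%). The 15 became 9 without CAP library 2 of day 3. Without CAP library 3 of that day, Col26a1 was called lower, and Col14a1 lost its call without any of 7 libraries. Leaving out the second CAP library of day 6 gave 6 called collagen genes, in a table where 386 of 20319 genes were called. They were the 4 genes called in sham wounds, with Col14a1 and Col12a1.

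CAP against sham addressed whether collagen expression differed with the capsaicin treatment. No collagen gene was called at either day. At day 3, 32 of 35 tested genes (3 positive) had a negative difference, while 37.8% of all genes had a positive one, and the median was -0.46 on the log2 scale against -0.05 for all genes. In limma 0 collagen genes were called, beside 0.0164% of all 18330 genes called higher and 0% lower. At the unadjusted threshold, 10 were lower (28.6%, all genes 5.14%) and 0 higher (all genes 1.46%). They were Col1a1, Col1a2, Col5a1, Col5a3, Col6a1, Col6a2, Col6a3, Col9a3, Col14a1 and Col16a1. All 3 CAP libraries lay below all 3 sham libraries for 6 genes (all genes 8.75%) and above them for 0 (all genes 2.86%). The count of 10 became 1 without sham library 1, sham library 3 or CAP library 2 of that day, and 5 with median-ratio scaling of the libraries.

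At day 6, 28 of 36 differences were negative and 8 positive, while 34.3% of all genes had a positive one, with a median of -0.45 against -0.12 for all genes. Again 0 were called in limma, beside 0% of all 18323 genes in either direction. Unadjusted, 15 were lower at p under 0.05 (41.7%, all genes 12.5%) and 2 were higher (5.56%, all genes 6.67%), the latter Col4a5 and Col4a6. All 3 CAP libraries lay below all 3 sham libraries for 15 genes (all genes 18.0%) and above them for 3 (all genes 8.01%), Col4a4, Col4a5 and Col4a6. Of the 15 at the unadjusted threshold, 6 were also at least 2-fold lower (all genes 2.34%): Col4a1, Col8a1, Col11a1, Col12a1, Col13a1 and Col24a1. None was at least 2-fold higher at that threshold (all genes 1.46%). Without the second CAP library, the median was -0.35 and 10 genes were lower at an unadjusted p under 0.05 (all genes 7.81%). Without sham library 1 or 3 there were 7, and without sham library 2 there were 9. Without CAP library 3, 10 collagen genes were called lower in limma, in a table where 1430 genes were called. The median of all genes was itself shifted at day 6, and median-ratio scaling moved it from -0.12 to -0.02. Under that scaling the collagen median was -0.35 and 9 genes were lower at the unadjusted threshold.

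Averaged over the days, in a comparison added after the data were seen, 32 of 37 differences were negative, while 33.5% of all genes had a positive one, with a median of -0.44 against -0.08 for all genes, or -0.37 without the second CAP library of day 6. No gene was called in limma, with 0% of all 20267 genes called in either direction. At the unadjusted threshold, 20 were lower (54.1%, all genes 13.5%) and 2 higher (5.41%, all genes 4.19%), Col4a5 and Col4a6. The 2 became 1 without sham library 1 or CAP library 1 or 3 of day 3, or library 2 of either group of day 6. The 5 genes with a positive difference were Col4a3, Col4a4, Col4a5, Col4a6 and Col17a1.

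**Figure D2:**
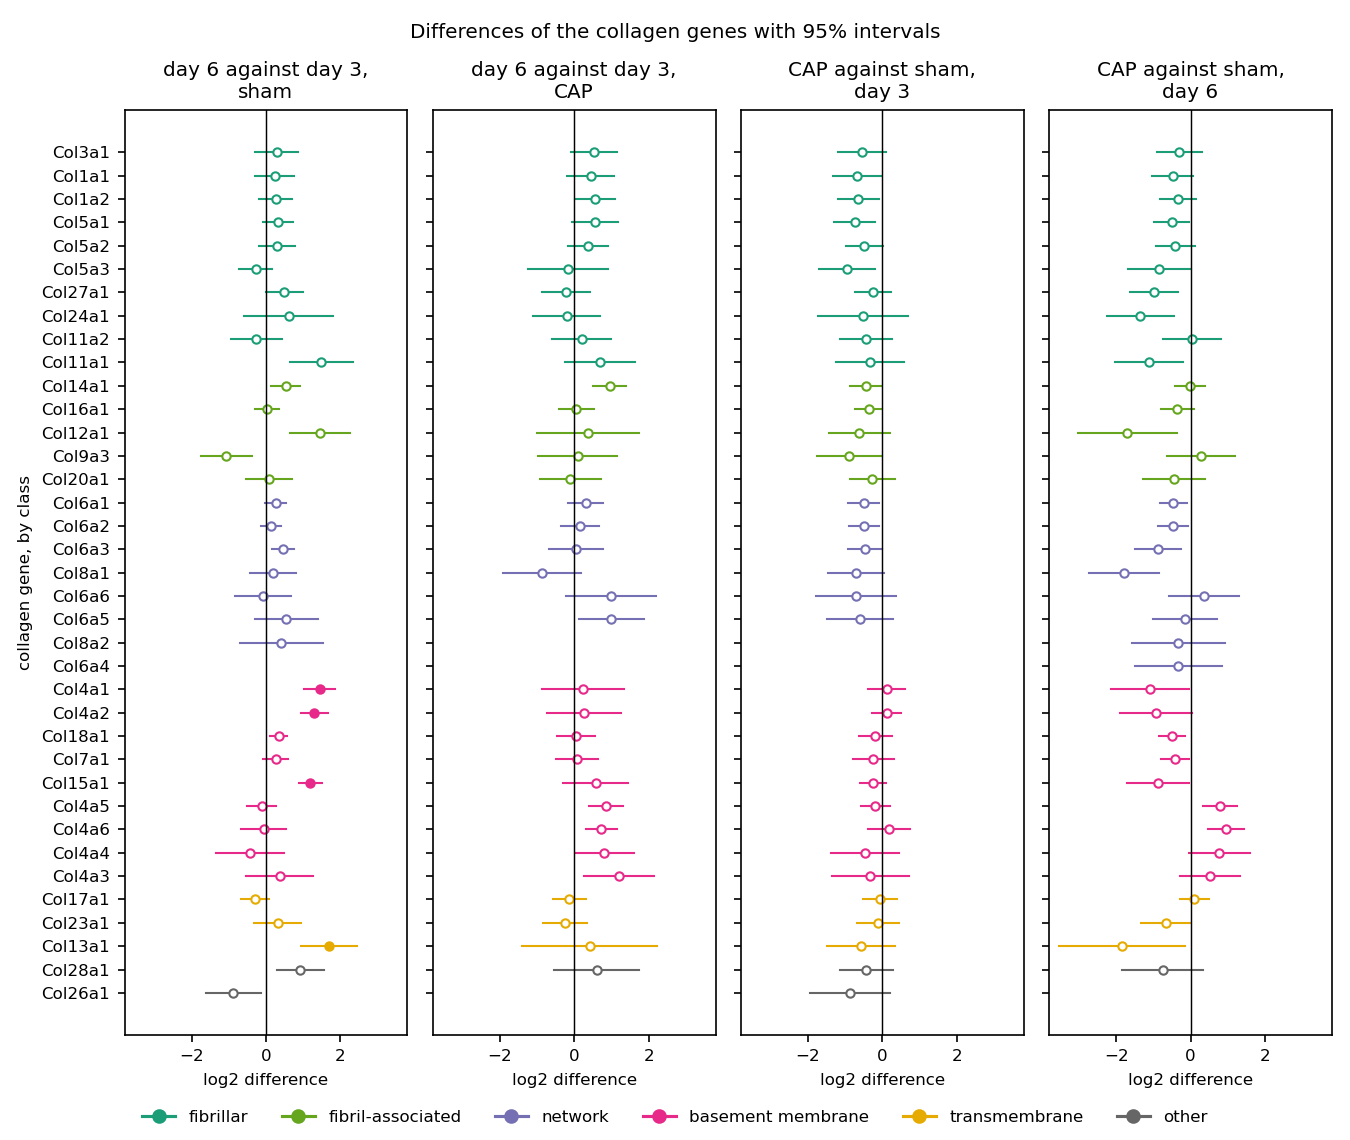
Difference in log2(TPM + 0.1) for each described collagen gene in 4 comparisons, with 95% confidence intervals from limma. Filled points have an adjusted p under 0.05, open points do not, and genes under the filter have no point. The 4 filled points (Col4a1, Col4a2, Col15a1, Col13a1) stand in the sham time comparison, and at day 3 of CAP against sham 32 of 35 points lie left of 0.

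The fibrillar collagens were the most abundant class. Col3a1, the chain of type III collagen, whose upstream stretch holds TATAAA once, had the highest mean of all 44 genes. It measured 10354, 6341 and 8509 TPM in the sham libraries of day 3 and 5314, 4709 and 7086 TPM in the CAP libraries, and 12036, 8546 and 9823 TPM and then 7611, 7166 and 9804 TPM at day 6. Sham libraries were higher on average at both days and the groups overlapped at both. The difference with CAP was -0.55 ± 0.27 (SE) at day 3 and -0.31 ± 0.26 at day 6 on the log2 scale (-0.22 ± 0.28 without the second CAP library), with adjusted p of 0.797 and 0.519 in limma.

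Type I collagen is built from Col1a1 and Col1a2 chains. Col1a1 (chr11:94936224-94953042, plus strand) measured 6896, 4151 and 5608 TPM in sham and 3250.4, 2704 and 4403 TPM in CAP wounds at day 3. At day 6 it measured 7051, 5748 and 6531 TPM and 4259, 3919.5 and 5832 TPM. At day 3, 1 CAP library lay above the lowest sham library, and at day 6 likewise. Col1a2 measured 4216, 2916 and 3563 TPM in sham and 2265, 1796 and 2824 TPM in CAP wounds at day 3, where all CAP libraries lay below all sham libraries. At day 6 it measured 4757, 3606 and 4372 TPM and 3088, 3060.0 and 3921 TPM, and the groups overlapped. The log2 differences with CAP at day 3 were -0.68 ± 0.27 for Col1a1 and -0.64 ± 0.23 for Col1a2, with unadjusted p of 0.0408 and 0.0264 and adjusted p of 0.734 and 0.713.

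Type V collagen starts the fibrils and limits their width. Its chains were at 470.4 ± 105 TPM (SD, n = 3) for Col5a1, 439 ± 109 TPM for Col5a2 and 374 ± 73.6 TPM for Col5a3 in sham wounds at day 3. In CAP wounds of that day they were at 282 ± 72.4 TPM, 311 ± 52.6 TPM and 204 ± 94.7 TPM. Col5a2 measured 607, 443 and 537 TPM in sham and 385, 306 and 528 TPM in CAP wounds at day 6, with overlap. Col5a1 had the smallest p of the collagen genes for CAP against sham at day 3, with a difference of -0.74 ± 0.23, unadjusted p = 0.0159 and adjusted p = 0.662. Its libraries measured 577, 368 and 466 TPM in sham and 281, 210.5 and 355 TPM in CAP wounds, with no overlap. Col5a3 was the least steady chain. It measured 372, 284 and 265 TPM in sham and 159.8, 103 and 296 TPM in CAP wounds at day 6, where the third CAP library lay within the sham range and the others below it.

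The minor fibrillar chains were far less abundant. Col27a1 and Col24a1, long-chain fibrillar collagens of cartilage and bone, averaged 10.2 and 4.16 TPM, and the type XI chains Col11a1 and Col11a2 averaged 0.831 and 1.37 TPM. Col11a1 measured 0.58, 0.553 and 0.415 TPM in the sham libraries of day 3 and 0.987, 2.1 and 2.01 TPM in those of day 6, which did not overlap. Its difference of 1.49 ± 0.36 had an unadjusted p of 0.00421 and an adjusted p of 0.0917. CAP against sham at day 6 gave -1.12 ± 0.39 with an adjusted p of 0.227, and -0.93 ± 0.41 without the second CAP library. Col24a1 measured 7.89, 6.6 and 4.62 TPM in sham and 2.51, 1.4 and 3.83 TPM in CAP wounds at day 6. Its groups did not overlap, with a difference of -1.35 ± 0.38 and an adjusted p of 0.209, and -0.98 ± 0.30 without that library. Col2a1, the main collagen of cartilage, stayed under 0.3 TPM in every group.

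Among the fibril-associated collagens, Col14a1 (chr15:55307750-55520803, plus strand) codes for a chain that binds fibrils of the dermis. It measured 149, 135 and 155 TPM in sham and 98.8, 87.7 and 140.3 TPM in CAP wounds at day 3, and 260.0, 167 and 214 TPM and then 192, 203 and 229 TPM at day 6. All 6 libraries of day 6 lay above all 6 of day 3. The difference averaged over treatments was 0.74 ± 0.13 with an adjusted p of 0.0286 in limma, the single collagen gene called in that comparison. It lost its call when any of 7 libraries was left out, with adjusted p up to 0.0756, while the difference stayed between 0.67 and 0.84. At day 6 the treatments differed by -0.02 with a 95% interval of -0.43 to 0.39.

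Col12a1, a long fibril-associated chain found in tissue under tension, spread more. It measured 97.8, 35.5 and 50.6 TPM in sham and 36.4, 32.1 and 41.5 TPM in CAP wounds at day 3, and 134, 184 and 147 TPM and then 59.6, 18.1 and 98.9 TPM at day 6. The sham libraries of day 6 were the 3 highest of all, and the second CAP library of day 6 was the lowest. The difference with CAP at day 6 was -1.69 ± 0.56, adjusted p = 0.223, and -1.001 ± 0.24 without that library. Between the days in sham wounds it was 1.45 ± 0.34, adjusted p = 0.0829. Col16a1 averaged 104 TPM, and Col9a3 and Col20a1 averaged 1.38 and 1.29 TPM. Col9a3, a chain of the cartilage collagen type IX, had the lowest time difference in sham wounds, -1.07 ± 0.29, with an adjusted p of 0.125. The cartilage markers, of which 4 of 8 were detected at 0.3 TPM in any library, summed to 11.9 to 14.3 TPM in those wounds at day 3 and 7.01 to 10.9 TPM at day 6. Sox9 held most of that sum, at 13.4, 12.8 and 10.9 TPM and then 9.2, 6.17 and 6.19 TPM. Comp went the other way, at 0.574, 0.538 and 0.547 TPM and then 0.792, 0.646 and 0.739 TPM. Acan was also higher, at 0.39, 0.107 and 0.343 TPM at day 6 against the stand-in for 0 at day 3, and Cnmd overlapped. The part of cartilage markers in the result was not tested.

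**Figure D3:**
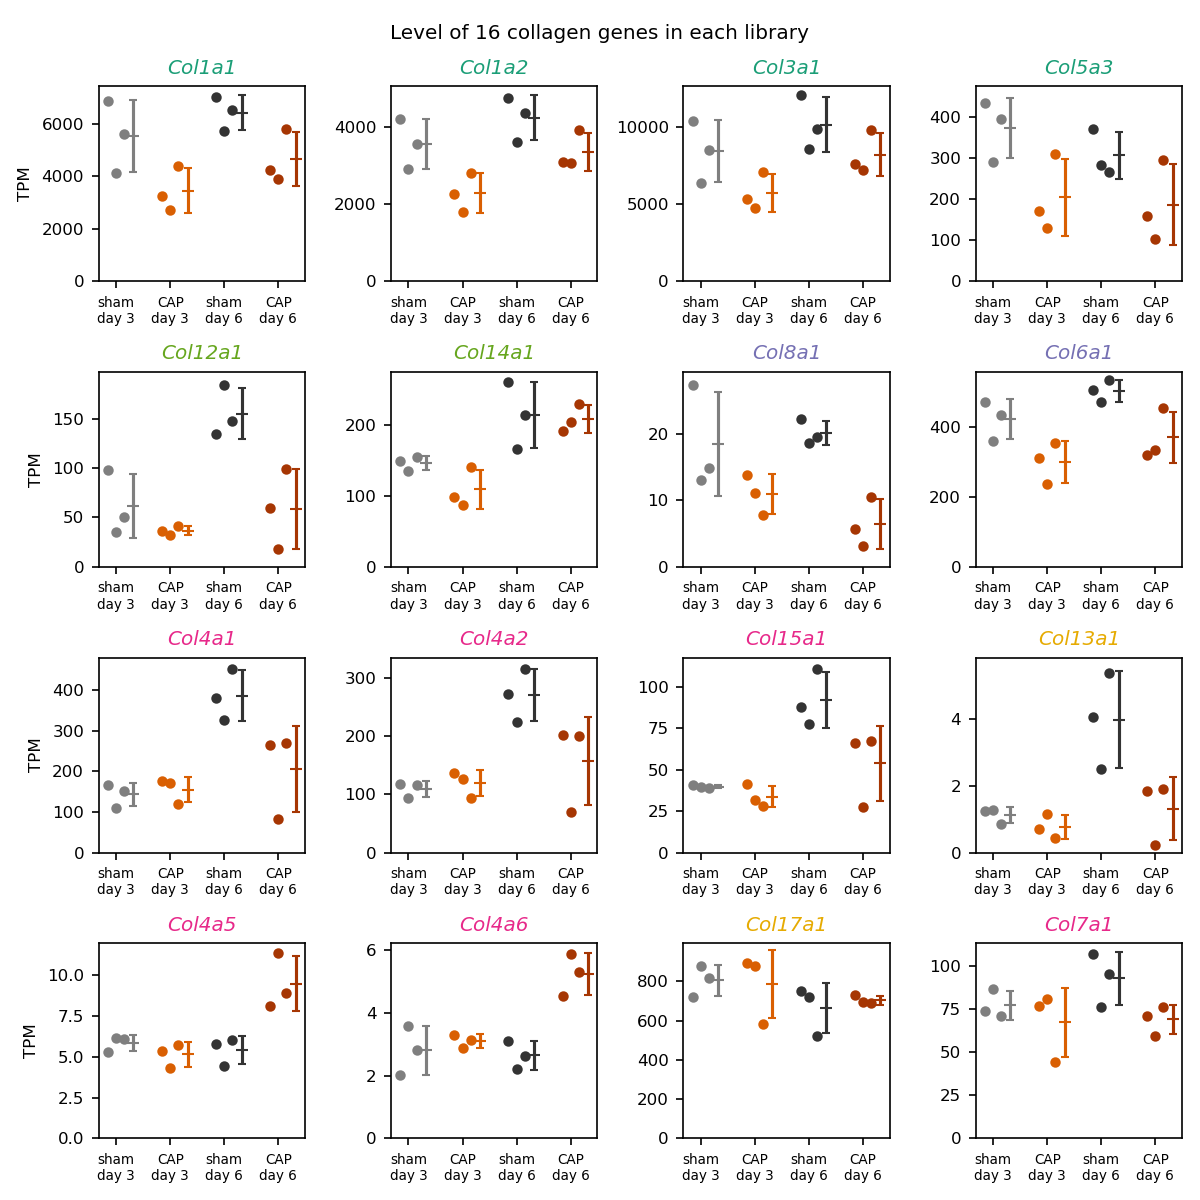
Level of 16 collagen genes in each library, in TPM on linear axes that start at 0. Points are single libraries in 4 groups of 3, and the bar beside them is the mean with its SD. Titles are colored by class (green fibrillar, light green fibril-associated, purple network, pink basement membrane, yellow transmembrane). Sham libraries of day 6 lie highest for Col12a1, Col4a1, Col4a2, Col15a1 and Col13a1, and CAP libraries of day 6 lie highest for Col4a5 and Col4a6.

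Type VI collagen forms beaded filaments around cells and joins the chains of Col6a1, Col6a2 and a longer chain, mostly that of Col6a3. Col6a1 measured 473, 360.4 and 436 TPM in sham and 311, 237 and 354 TPM in CAP wounds at day 3, and 507, 473 and 534 TPM and then 322, 336 and 454 TPM at day 6. CAP libraries lay below sham libraries at both days with no overlap, and so it was for Col6a2. At day 6, Col6a2 measured 499, 454 and 496 TPM in sham and 297, 313 and 446 TPM in CAP wounds. Their differences at day 3 were -0.50 ± 0.18 and -0.50 ± 0.17, and at day 6 -0.46 ± 0.15 and -0.48 ± 0.17. The lowest adjusted p among these 4 tests was 0.225, for Col6a1 at day 6. Without the second CAP library the differences at day 6 were -0.40 ± 0.17 and -0.41 ± 0.19. Col6a3 measured 254, 268 and 280.3 TPM in sham and 145, 99.6 and 215 TPM in CAP wounds at day 6, without overlap, a difference of -0.87 ± 0.26 with an adjusted p of 0.212, and -0.60 ± 0.18 without that library. The alternative long chains Col6a4, Col6a5 and Col6a6 averaged 0.38, 0.822 and 2.82 TPM.

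Type VIII is a short-chain collagen of vessels and repairing tissue. Col8a1 (chr16:57624258-57754737, minus strand), whose upstream stretch shown above holds the GC box 3 times, measured 27.3, 13.1 and 14.9 TPM in sham and 13.7, 11.1 and 7.83 TPM in CAP wounds at day 3. At day 6 it measured 22.2, 18.7 and 19.4 TPM in sham and 5.72, 3.14 and 10.5 TPM in CAP wounds. The groups overlapped at day 3 and did not at day 6, when the highest CAP library was at 10.5 TPM and the lowest sham library at 18.7 TPM. The difference at day 6 was -1.78 ± 0.39 with an unadjusted p of 0.00277 and an adjusted p of 0.205, and -1.35 ± 0.26 without the second CAP library. Its partner Col8a2 stayed near the limit, at 0.577 ± 0.369 TPM and 0.424 ± 0.2 TPM in the same groups.

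Among the basement membrane collagens, Col4a1, Col4a2 and Col15a1 had their highest libraries in sham wounds of day 6, and Col4a5 and Col4a6 in CAP wounds of day 6. Col4a1 (ENSMUSG00000031502) and Col4a2 (ENSMUSG00000031503) code for the type IV chains of nearly all basement membranes, those of vessels included. Col4a1 measured 166, 111 and 152 TPM in the sham libraries of day 3 and 381, 327 and 450.1 TPM in those of day 6. In CAP wounds it measured 176, 170.5 and 118 TPM at day 3 and 263, 82.6 and 268 TPM at day 6. The sham libraries of day 6 lay above all 9 others, and the second CAP library of day 6 was the lowest of all 12. Col4a1 rose by 1.44 ± 0.18 in sham wounds (adjusted p = 0.0157). In CAP wounds the difference was 0.24 ± 0.46 (adjusted p = 0.857), or 0.80 ± 0.20 without that library. The day effects differed by -1.20 ± 0.55, with an adjusted p of 0.44, and by -0.64 ± 0.29 without that library.

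Col4a2 measured 118, 93.2 and 116 TPM and 272, 225 and 314 TPM in sham wounds at day 3 and day 6, and 137, 126 and 94.1 TPM and 202, 69.7 and 199.9 TPM in CAP wounds. The sham libraries of day 6 were again the highest and the second CAP library of day 6 the lowest. Col4a2 rose by 1.30 ± 0.15 in sham wounds (adjusted p = 0.0146). Col15a1 (ENSMUSG00000028339, chr4:47208161-47313167, plus strand), a chain that links basement membranes of vessels and muscle to the matrix, measured 40.6, 39.4 and 38.9 TPM and 87.6, 77.6 and 111 TPM in sham wounds. In CAP wounds it measured 41, 31.9 and 28.3 TPM and 66.2, 27.3 and 67.5 TPM. The 3 sham libraries of day 3 lay close together and far below those of day 6, and it rose by 1.20 ± 0.13 (adjusted p = 0.0146). CAP against sham at day 6 gave -1.09 ± 0.44 for Col4a1, -0.92 ± 0.41 for Col4a2 and -0.87 ± 0.35 for Col15a1, with no adjusted p below 0.248. Without the second CAP library these were -0.53 ± 0.15, -0.41 ± 0.16 and -0.44 ± 0.16.

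Between the days, the sum of the 10 endothelial markers moved with these 3 genes, and the sums of other lists also differed in sham wounds. The endothelial markers summed to 171 to 232 TPM in sham wounds at day 3 and 406 to 551 TPM at day 6, and to 163 to 235 TPM and 129 to 353 TPM in CAP wounds. The TPM of Col4a1, Col4a2 and Col15a1 together was 1.39 to 1.68 for each TPM of the markers in all 12 libraries, while the sum of the 3 genes itself ran from 179.6 to 875 TPM. In sham wounds that ratio was 1.399 to 1.423 at day 3 and 1.545 to 1.589 at day 6, without overlap. In CAP wounds it was 1.476 to 1.677 at day 3 and 1.388 to 1.656 at day 6. In sham wounds the sum of the 10 monocyte and macrophage markers was higher at day 6, at 9025 to 13268 TPM against 5634 to 7749 TPM at day 3. Singly, Lyz2 and C1qb were higher without overlap, and the others overlapped. Lyz2, the largest part of the sum, measured 3954, 2641 and 3212 TPM at day 3 and 6110, 5356 and 8049 TPM at day 6. Ccr2 went the other way, at 107, 78.0 and 91.3 TPM and then 79.2, 42.9 and 61.2 TPM. The sum of the 10 skeletal muscle markers was lower, at 2885 to 4225 TPM against 4722 to 6946 TPM. Neither sum overlapped between the days in sham wounds, and both overlapped in CAP wounds. There the monocyte and macrophage markers were at 6005 to 11496 TPM at day 3 and 5426 to 11701 TPM at day 6. The skeletal muscle markers were at 2427 to 6746 TPM and 2194 to 3106 TPM. In sham wounds, the sum of 8 myofibroblast and mural markers was 511 to 578 TPM at day 3 and 596 to 757 TPM at day 6. The sum of 8 erythroid markers was 514 to 753 TPM and 2114 to 5623 TPM. Neither overlapped there, and both overlapped in CAP wounds. Of the mural list in sham wounds, Acta2, Tagln, Rgs5 and Myh11 were higher without overlap and Des was lower. The others overlapped. The cartilage sum was lower, as given above. The part of these cell types in the result was not tested. Col18a1, the source of the fragment endostatin, was at 123 ± 7.15 TPM and 156 ± 14.1 TPM in sham wounds and 109.8 ± 26.8 TPM and 112 ± 17.9 TPM in CAP wounds, at day 3 and day 6.

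Col4a5 and Col4a6 code for type IV chains of epidermal basement membrane. Col4a5 measured 5.3, 6.15 and 6.09 TPM in sham and 5.39, 4.31 and 5.76 TPM in CAP wounds at day 3, and 5.79, 4.44 and 6.02 TPM and then 8.15, 11.4 and 8.93 TPM at day 6. Col4a6 measured 2.04, 3.6 and 2.82 TPM and 3.31, 2.88 and 3.15 TPM at day 3, and 3.11, 2.2 and 2.64 TPM and then 4.53, 5.87 and 5.31 TPM at day 6. For both genes the 3 CAP libraries of day 6 lay above all 9 others, and the second CAP library was the highest. CAP against sham at day 6 gave 0.80 ± 0.19 for Col4a5 and 0.96 ± 0.20 for Col4a6, with adjusted p of 0.206 and 0.205. Without the second CAP library the differences were 0.66 ± 0.19 and 0.88 ± 0.23. The day effect of Col4a5 differed between CAP and sham wounds by 0.98 ± 0.25, with an unadjusted p of 0.00236 and an adjusted p of 0.428, and by 0.84 ± 0.24 without that library.

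Col4a3 and Col4a4, whose starts are separated by the 71 bases shown above, code for the other chains of the specialized type IV networks. They averaged 0.578 and 1.74 TPM. At day 6, Col4a4 was at 1.68, 0.872 and 1.51 TPM in sham and 2.17, 3.25 and 1.74 TPM in CAP wounds, without overlap, a difference of 0.78 ± 0.35 with an adjusted p of 0.276, and 0.54 ± 0.35 without the second CAP library. The 10 keratinocyte markers summed to 26137 to 29029.9 TPM in sham and 44135 to 91794 TPM in CAP wounds at day 6, and to 28953 to 46488 TPM and 24360.5 to 45836 TPM at day 3. Krt1 and Krt10 summed to 11442 to 13714 TPM in sham and 29737 to 70519 TPM in CAP wounds at day 6, and the other 8 markers to 13053 to 15316 TPM and 14398 to 25649.6 TPM, with overlap. Singly, Krt1, Krt10, Krt5, Krt15 and Dsp lay above sham in all CAP libraries of day 6, while Krt14, Trp63, Itga6, Lamb3 and Dsg3 overlapped. Per 1000 TPM of all 10 markers, Col4a5 and Col4a6 together made up 0.178 to 0.365 TPM over the 12 libraries, and the part of keratinocytes in the result was not tested.

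Col7a1 and Col17a1, which tie the epidermis to the dermis, did not follow the same order. Col17a1 (chr19:47646344-47692094, minus strand) was the most abundant transmembrane collagen, and its upstream stretch holds TATAAA 2 times. It measured 721, 879 and 817 TPM in sham and 892, 879 and 585 TPM in CAP wounds at day 3, and 749.6, 722 and 519 TPM and then 729, 694 and 689 TPM at day 6. All 4 groups overlapped, and CAP against sham at day 6 gave 0.10 with a 95% interval of -0.28 to 0.49. Col7a1 was at 92.6 ± 15.3 TPM in sham and 68.8 ± 8.52 TPM in CAP wounds at day 6, a difference of -0.42 ± 0.16 with an adjusted p of 0.234, and -0.32 ± 0.16 without the second CAP library.

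**Figure D4:**
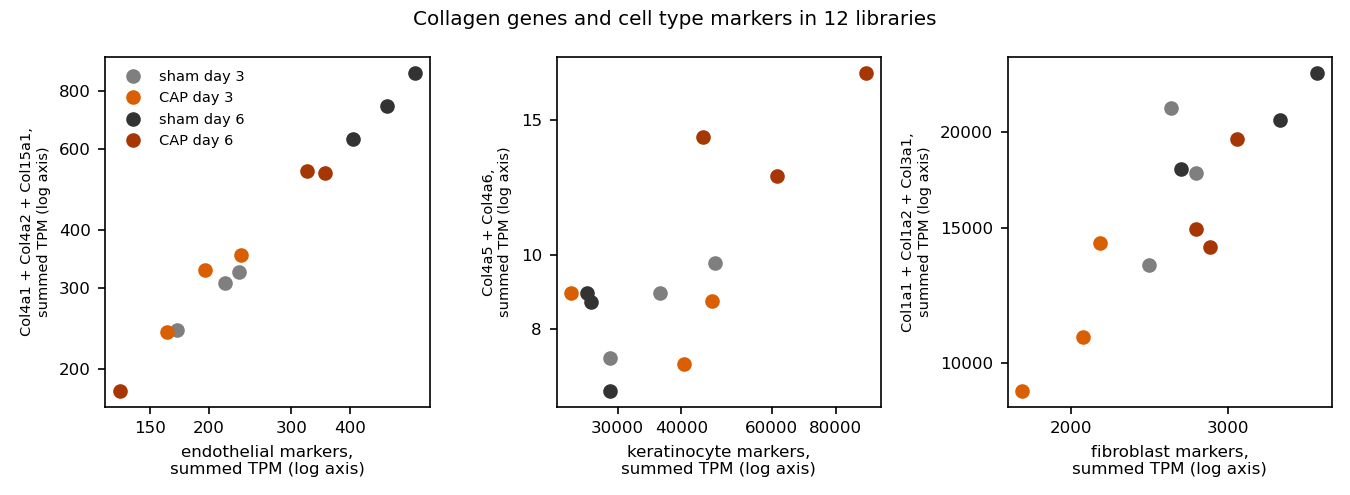
Summed TPM of collagen genes against summed TPM of 10 marker genes of a cell type, 1 point per library, both axes logarithmic. The left plot sets Col4a1, Col4a2 and Col15a1 against endothelial markers, where the points follow a line from 179.6 to 875 TPM. The middle plot sets Col4a5 and Col4a6 against keratinocyte markers, with the 3 CAP libraries of day 6 at the top, and the right plot sets Col1a1, Col1a2 and Col3a1 against fibroblast markers.

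Col13a1 (ENSMUSG00000058806, chr10:61838236-61979108, minus strand), a transmembrane collagen of cell adhesion sites, was low in all libraries. It measured 1.24, 1.26 and 0.849 TPM and 4.05, 2.49 and 5.36 TPM in sham wounds at day 3 and day 6, and 0.701, 1.14 and 0.432 TPM and 1.83, 0.228 and 1.89 TPM in CAP wounds. The sham libraries of day 6 were the 3 highest. It rose by 1.69 ± 0.32 in sham wounds (adjusted p = 0.0467), the weakest of the 4 calls, which 5 of the 6 leave-one-out fits lost with adjusted p up to 0.151. Col23a1 was at 16.9 ± 7.01 TPM in sham and 10.1 ± 0.9 TPM in CAP wounds at day 6. Of the others, Col28a1 measured 2.7, 2.37 and 2.34 TPM and 6.09, 3.13 and 5.64 TPM in sham wounds at day 3 and day 6, and 2.6, 1.17 and 1.89 TPM and 5.24, 1.58 and 2.57 TPM in CAP wounds. It was higher on average at day 6, by 0.92 ± 0.27 in sham wounds with an adjusted p of 0.149. Col26a1 was at 0.802 ± 0.0648 TPM and 0.392 ± 0.0226 TPM in sham wounds at day 3 and day 6. In CAP wounds it was at 0.437 ± 0.255 TPM and 0.103 ± 0.106 TPM, the last under the filter of 0.3 TPM. Its difference between the days, averaged over treatments, was -1.13 ± 0.32 with an adjusted p of 0.102.

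Ratios of chains within a library leave out how much collagen the library holds, and 8 ratios were compared over treatments and days after the data had been seen. The ratio of Col5a3 to Col5a1 was 0.752, 0.792 and 0.848 in sham and 0.607, 0.62 and 0.875 in CAP wounds at day 3, and 0.585, 0.532 and 0.467 and then 0.422, 0.316 and 0.541 at day 6. All libraries of day 6 lay below all libraries of day 3 and the ratio was 36.9% lower, with exact permutation p = 0.005, the smallest this design can give, and adjusted p = 0.04 over 16 tests. The ratio of Col6a1 to Col6a2 was 0.957 ± 0.0192 and 0.952 ± 0.00737 (SD, n = 3) in sham and CAP wounds at day 3, and 1.05 ± 0.0312 and 1.06 ± 0.0354 at day 6. It was 10.2% higher at day 6, with the same exact permutation p and adjusted p, and every library of day 6 lay above every library of day 3. Both ratios had the same exact permutation p without the second CAP library of day 6.

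The ratio of Col3a1 to Col1a1 was 1.5, 1.53 and 1.52 in sham and 1.63, 1.74 and 1.61 in CAP wounds at day 3, and 1.71, 1.49 and 1.5 and then 1.79, 1.83 and 1.68 at day 6. It was 11.2% higher with CAP averaged over the days, with exact permutation p = 0.01 (0.02 without the second CAP library of day 6) and adjusted p = 0.0533. At day 3 the groups did not overlap, and at day 6 the first sham library lay above the lowest CAP library. The ratio of Col1a1 to Col1a2 ran from 1.28 to 1.64 over the 12 libraries, with exact permutation p = 0.11 for CAP against sham.

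**Figure D5:**
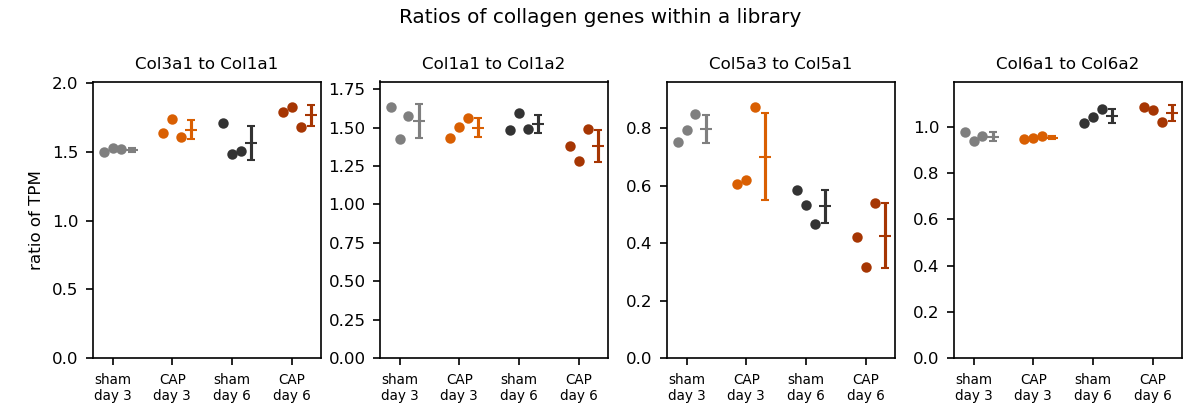
Ratio of the TPM of 2 collagen genes within each library, on linear axes that start at 0, for 4 pairs of genes. Points are single libraries in groups of 3 with the mean and its SD beside them. Col5a3 to Col5a1 is lower and Col6a1 to Col6a2 higher in every library of day 6 than in every library of day 3.

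Genes that fold, modify and cross-link collagen were counted from a list of 35, of which 34 passed the filter. None was called in limma in any comparison, except that Adamts2 was called higher at day 6 averaged over treatments (0.61 ± 0.13, adjusted p = 0.0492) when the second CAP library of day 6 was left out. At day 6 of CAP against sham, 32 of 34 differences were negative, with a median of -0.58 against -0.12 for all genes, and 15 were lower at an unadjusted p under 0.05 (all genes 12.5%). Without the second CAP library, the median was -0.32 against -0.08 for all genes and 6 were lower (all genes 7.81%). The smallest p values were those of P3h3, a prolyl hydroxylase, at -0.72 ± 0.22, Plod3, a lysyl hydroxylase, at -0.95 ± 0.31, and Fkbp10, a chaperone of the endoplasmic reticulum, at -0.86 ± 0.29, each with an adjusted p of 0.213 to 0.225. Without that library these were -0.52 ± 0.19, -0.59 ± 0.18 and -0.53 ± 0.18. At day 3, 32 of 34 were also negative, with a median of -0.41, and 5 were lower at the unadjusted threshold (all genes 5.14%). Those with the smallest p were Adamts14, a procollagen protease, at -0.68 ± 0.20, Serpinh1, the collagen chaperone HSP47, at -0.67 ± 0.23, and Pcolce, an enhancer of procollagen trimming, at -0.49 ± 0.16. Averaged over the days, 23 were lower (all genes 13.5%) and 1 higher (P3h2, 0.22 ± 0.09, all genes 4.19%) at the unadjusted threshold, with the smallest p for Serpinh1 (-0.72 ± 0.20), Pcolce (-0.47 ± 0.13) and the cross-linking enzyme Loxl4 (-0.69 ± 0.20). Leaving out the second CAP library of day 6, 17 were lower and 0 higher (all genes 10.1% and 3.12%). Between the days, averaged over treatments, the median of the list was -0.07, beside 0.33 for the collagen genes and -0.02 for all genes. Adamts2, the main procollagen N-protease, had the smallest p between the days, at 0.51 ± 0.14 in sham and 0.60 ± 0.19 in CAP wounds, with adjusted p of 0.134 and 0.355.

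Of 10 collagen receptors, 9 passed the filter. Itga11, the integrin chain by which fibroblasts hold fibrillar collagen, was the single receptor called, higher at day 6 averaged over treatments by 1.05 ± 0.21 (adjusted p = 0.0414, all genes 0.543%). With the second CAP library of day 6 left out it lost its call (1.04 ± 0.23, adjusted p = 0.0538), and Itga1 was called in its place (0.77 ± 0.16, adjusted p = 0.046). With CAP at day 6, Itga2, Itgb1 and Itga1 had the smallest p among the lower receptors, at -0.77 ± 0.19, -0.69 ± 0.21 and -1.12 ± 0.40, and Ddr2 had a difference of 0.32 ± 0.10, with adjusted p of 0.207 to 0.231. Without that day's second CAP library these were -0.62 ± 0.18, -0.45 ± 0.13, -0.62 ± 0.16 and 0.31 ± 0.11. Averaged over the days, Itga2, Itgb1 and Mrc2, a receptor that takes up collagen, had differences of -0.46 ± 0.13, -0.40 ± 0.14 and -0.36 ± 0.13, with adjusted p of 0.15 to 0.203. Itga10 had the smallest p at day 3, at -0.86 ± 0.36.

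The 10 fibroblast markers summed to 2449 to 2768 TPM in sham and 1765 to 2157 TPM in CAP wounds at day 3, with no overlap, and to 2662 to 3782 TPM and 2764 to 3077 TPM at day 6. For each TPM of those markers, Col1a1, Col1a2 and Col3a1 together made up 5.48 to 8.28 TPM in sham and 5.22 to 6.63 TPM in CAP wounds at day 3, and 6.03 to 6.73 and 4.94 to 6.36 TPM at day 6. Dcn was the largest part of the fibroblast sum. At day 6, Pdgfra (76.4 to 87.9 TPM in sham, 29.5 to 66.5 TPM in CAP wounds) and Pdgfrb (52.7 to 65.1 and 23.3 to 43.8 TPM) were lower in all CAP libraries. Dpp4 was higher in all of them (20.7 to 31.8 and 38.7 to 54.4 TPM), and the other fibroblast markers overlapped. The 8 myofibroblast and mural markers summed to 511 to 578 TPM in sham and 302 to 704 TPM in CAP wounds at day 3, with overlap. Des held most of that sum at day 3, at 375, 397 and 306 TPM in sham and 503, 273 and 159 TPM in CAP wounds. At day 6 the 8 markers summed to 596 to 757 TPM in sham and 257 to 440.4 TPM in CAP wounds. Singly, Des, Acta2 and Tagln lay below sham in all CAP libraries of day 6, and the others overlapped. The 8 erythroid markers summed to 514 to 753 TPM in sham and 2357 to 2804 TPM in CAP wounds at day 3, and to 2114 to 5623 TPM and 716 to 3185 TPM at day 6. The 8 Schwann cell markers summed to 172 to 213 TPM in sham and 87.9 to 149 TPM in CAP wounds at day 3, without overlap. At day 6 the Schwann cell markers overlapped, at 159 to 183 TPM in sham and 76 to 163 TPM in CAP wounds. The part of these cell types in the collagen differences was not tested.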

How the data were processed

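The authors sequenced mRNA libraries of mouse skin wounds made with the SureSelect XT HS2 kit, and the submitters' processing notes and the methods name bcl2fastq 2.20, Trimmomatic 0.36, StringTie 2.1.4 and mm10. The authors deposited 12 tables of TPM, 1 per library, with 55487 genes each, in which 0.0001 stands in place of 0. TPM carries no read depth, so depth is unknown and precision rests on 3 libraries per group. The coordinates of 44 of 44 collagen genes were those of GENCODE M21.

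From these, log2(TPM + 0.1) was fitted in limma 3.58.1 (R 4.3.3, trend by mean level). Genes entered a comparison of 2 groups if each group averaged 0.3 TPM or more, and a comparison over all 12 libraries if any group did. Adjusted p values are those of Benjamini and Hochberg across the whole tested table, and the fit was tested on simulated data. Differences are on this scale, which understates those of low genes, and are printed with their SE. Sums and ratios were tested with exact permutation tests, 2-sided, over 20 divisions of 6 libraries or 400 divisions within days or treatments. Python 3.11.15, numpy 2.4.6, pandas 2.3.3 and matplotlib 3.10.9 were used.

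Libraries were grouped by treatment and day, and p values measure the spread between libraries, which may share mice. The design named values in every library for genes called, for the leading genes of a class and for chains of types I, IV, V, VI and VIII, and the assembly and receptor genes with the 3 smallest p in each direction, here where p was under 0.05. Other members could be named. The members, classes, marker lists and tests were chosen with earlier results of these data known. The treatment effect averaged over days, the ratios, the counts at an unadjusted p the joint fit without 1 library, the assembly and receptor values without it and the split of the keratinocyte markers were added after the data were seen. Of the 44 genes, 15 overlap another gene on their own strand and 18 on the other, and reads of such genes may have been split by the authors' counting.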

Additional observations from a re-analysis of the deposited data

How the results depend on the processing

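No difference of a collagen gene at an unadjusted p under 0.05 changed direction in any alternative run. Runs used a 1 TPM pseudocount, no filter, filter in at least 1 group, joint fit, median-ratio scaling, replicate block or each library left out. Sums were rerun only with median-ratio scaling and each library left out, and ratios only with each library left out. No sum of all collagen genes, class sum with exact permutation p up to 0.1 or ratio with p under 0.05 changed direction. Class sums with a higher p, and the class of others, were not checked for direction. In sham wounds, the 4 genes called higher at day 6 became 2 with no filter and 0 in the joint fit of all libraries, where limma called 0 genes of the whole table and 8 collagen genes were higher at an unadjusted p under 0.05. Averaged over treatments, 1 became 0 with no filter (15 at the unadjusted threshold) and 2 with median-ratio scaling. At an unadjusted p under 0.05, genes lower in sham wounds at day 6 went from 2 to 1 in the joint fit and in the joint fit without CAP library 2 of day 6, which gave 14 genes higher in CAP wounds, and genes lower in CAP wounds at day 6 from 0 to 1 with no filter. For CAP against sham at day 3, with no filter, 2 were higher and 5 lower, and median-ratio scaling also gave 5 lower. At day 6 it gave 9 lower, as did the joint fit without CAP library 2. For day 6 averaged over treatments, 2 were lower with no filter.

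With each library left out, genes called higher numbered 0 to 5 in sham wounds and 0 to 6 averaged over treatments, where 0 to 1 were called lower. Genes called lower with CAP at day 6 numbered 0 to 10. At the unadjusted threshold, the ranges for higher and lower were 10 to 15 and 1 to 2 for time in sham wounds, 3 to 10 and 0 to 2 for time in CAP wounds, and 9 to 18 and 1 to 2 averaged over treatments. For CAP against sham they were 0 and 1 to 14 at day 3, 2 to 3 and 7 to 20 at day 6, and 1 to 2 and 16 to 22 averaged over days. For the difference of the day effects they were 1 to 5 and 0 to 6. The summed collagen difference on the log2 scale stayed between 0.28 and 0.43 for time averaged over treatments, with exact permutation p of 0.02 to 0.09, and between -0.55 and -0.40 for CAP.

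Libraries of the same number correlated at -0.11 to 0.24 in their deviations from group means, above 0.1 in 2 of 18 pairs. The main fits treated the libraries as unpaired. With 3 libraries a group, these correlations cannot exclude that libraries of the same number share a preparation. With the replicate block, 2 genes were called higher at day 6 averaged over treatments and 3 lower with CAP averaged over days, in tables where 567 and 246 of 20267 genes were called. At the unadjusted threshold the block gave 1 gene lower at day 6 in sham wounds, 11 higher in CAP wounds, and 3 with the larger day effect in sham wounds.

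Depth is unknown, and with 3 libraries a group differences of single genes with wide intervals could not be resolved.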
